A study of Rattus norvegicus with 12 samples.

Results

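Articular cartilage of rat knees was compared between 8 and 2 weeks after surgery that induces osteoarthritis (OA). The comparison used 6 of the 12 arrays of the study, chosen by their surgery and time labels: 3 arrays of OA cartilage at 8 weeks and 3 at 2 weeks. The other 6 arrays held cartilage of sham-operated knees, 3 at 8 weeks and 3 at 2 weeks, and gave the change over the same weeks without OA surgery. The labels point to a published surgical rat model and do not state strain, sex or age, and they do not say whether the 3 arrays of a group came from separate animals or from pools. The p-values therefore measure only the spread between these samples, which may be technical, and precision is limited by there being 3 arrays in a group.

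Hyaline cartilage is built by a single cell type, the chondrocyte, which secretes a network of collagens II, IX and XI filled with the proteoglycan aggrecan. Deep chondrocytes enlarge, mineralize their matrix and border the subchondral bone, where osteoclasts, osteoblasts, vessels and marrow lie. In OA the matrix is broken down by metalloproteinases and aggrecanases, while chondrocytes divide, change their secreted products and lose their quiescence. Cartilage dissected from a small joint can carry bone, marrow, synovium or muscle with it, and in such bulk samples fewer cells of a type and less RNA per cell cannot be told apart.

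The values were log2 GCRMA values, on which a difference of 1 is a 2-fold change, and each gene is described by 1 probe set. Of the 31099 probe sets on the array, 15690 exceeded log2 4 in at least 3 of the 6 OA arrays and were tested, and 9138 genes were named among them. The arrays carried cartilage RNA at both times. Col2a1, the fibrillar collagen of hyaline cartilage, read 16.11, 16.05 and 16.04 at 2 weeks and 15.88, 16.04 and 16.09 at 8 weeks. Acan, the aggrecan core protein, ran from 14.16 to 14.28 at 2 weeks and from 14.37 to 14.64 at 8 weeks, and Comp, a pentameric matrix protein, from 15.37 to 15.57 and from 15.49 to 15.59. None of the 3 passed the test between the times.

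Array 1 of OA cartilage at 8 weeks stood apart. Its 3' over 5' difference for the Gapdh control probe sets was 0.885, against 1.24 to 1.47 on the other 11 arrays, and its mean for the hybridization controls was 9.95, against 10.71 to 11.52. A list of skeletal muscle genes averaged log2 14.05 on that array, 10.79 and 9.49 on the other OA arrays at 8 weeks, and 7.67, 6.30 and 5.52 at 2 weeks. In sham cartilage the same list averaged 9.94, 6.24 and 7.73 at 8 weeks and 5.91, 6.72 and 6.14 at 2 weeks. The level of muscle genes was thus highest on average in OA at 8 weeks, where its lowest array overlapped sham array 1 of 8 weeks. For several lists and genes, results are also given with this level as a covariate or without array 1. Where no such result is given, a call may still have been lost. Across all genes, the part of muscle RNA in the changes was not tested beyond these fits.

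Between 2 and 8 weeks 3416 probe sets (21.8%) rose in OA cartilage and 1932 (12.3%) fell (limma, Benjamini-Hochberg adjusted p under 0.05), 34.1% of those tested. Over genes, 1512 rose (16.5%) and 1168 fell (12.8%), 29.3% together, and the median change was 0.04. These percentages are the background against which the counts of gene lists stand. The lists were chosen with earlier results of these data known. The share called fell as the signal rose, from 64.5% of probe sets with a mean between log2 4 and 6 to 14.0% above 12. A list of dim genes is thus set against too low a share, and a list of bright genes against too high a share. The 50 lists held 1514 distinct genes, of which 971 passed the level filter, and a gene that passed only through the arrays where it was high had to differ, so each count covers the tested members alone. Of the called genes, 598 rose and 548 fell by at least 1 on the log2 scale, and 177 rose and 246 fell by at least 2. The split of the calls moved with the centring of the arrays. As deposited, 63.9% of the called probe sets were higher at 8 weeks, with a median change of 0.09 over probe sets; with equal array medians 44.2% were higher (2206 rises and 2781 falls, median -0.09), and with an added quantile normalization 49.9% (2745 and 2753, median -0.01). A fit that held the muscle list's level as a covariate, here called the muscle covariate, gave 1492 rises and 726 falls.

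In sham cartilage 2908 probe sets (18.5%) passed the same test, 1946 higher (12.4%) and 962 lower (6.13%) at 8 weeks. Over genes, 860 rose (9.41%) and 482 fell (5.27%), 14.7% together. Over the 9138 genes the OA change and the sham change had a Pearson r of 0.774 across genes, which are not independent replicates. Of the 2680 genes called in OA, 2394 had the same sign in sham, 1181 were also called there in the same direction, 1 was called in the opposite direction, and 2240 had the larger size in OA. These genes were picked by their OA change and filtered on the OA arrays. A larger size in OA is favoured by that choice and is not evidence of a larger change in OA. The closeness of the pair of changes depended on the signal. Among probe sets with a mean between log2 4 and 6, r was 0.884, with 64.5% called in OA and 51.3% in sham. Among those between 10 and 12, r was 0.421, with 16.9% called in OA and 1.86% in sham.

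Several dim genes showed this pattern in every array. Birc5, a mitotic and anti-apoptotic protein, read 5.54 to 5.62 at 2 weeks and 2.62 to 2.67 at 8 weeks in OA cartilage, a fall of 2.93 (SE 0.08), and fell by 2.81 in sham. Hspg2, the basement membrane proteoglycan perlecan, rose by 1.96 in OA and 2.00 in sham, and Znf780b, a zinc finger gene, fell by 5.30 and 5.13. All 6 arrays of 8 weeks differed from all 6 of 2 weeks for these genes whatever the surgery. The sources used here do not say how the arrays were spread over processing runs, so time after surgery and array processing cannot be told apart for such a shift. Of the 6710 genes with a mean above log2 8 in the OA arrays, 686 (10.2%) rose and 554 (8.26%) fell.

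**Figure D1:**
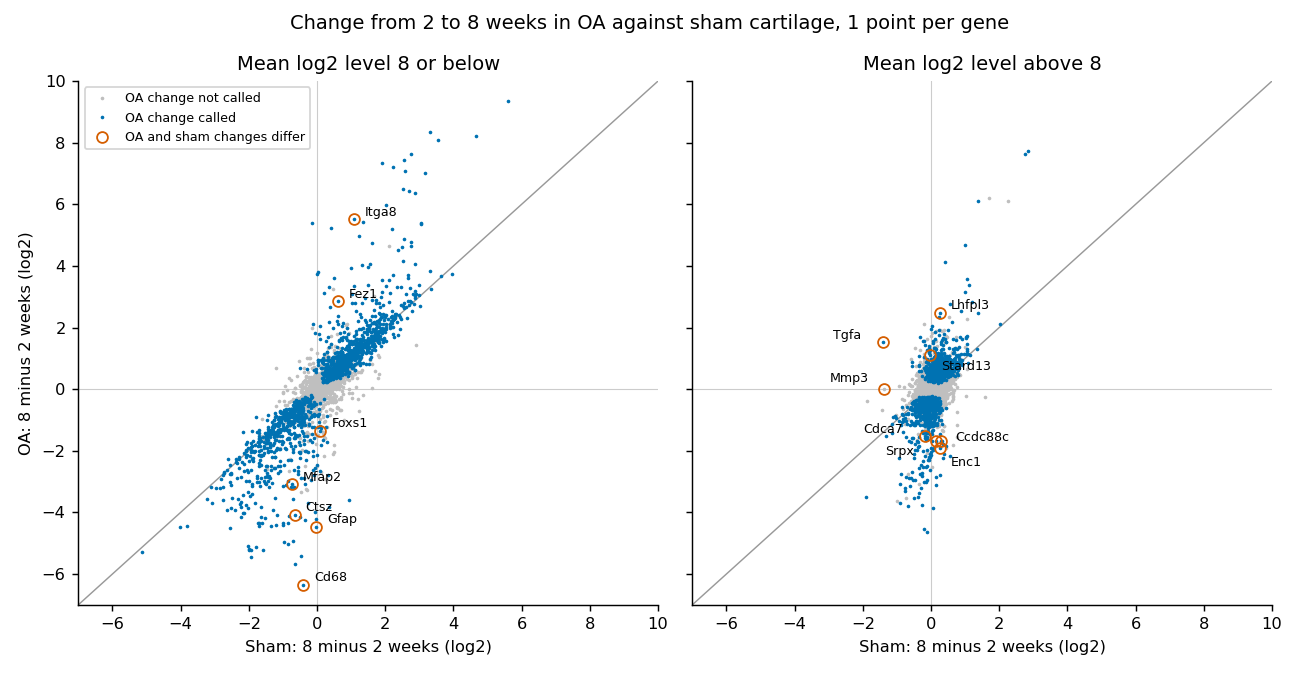
Change from 2 to 8 weeks in OA cartilage (vertical, log2) against the change in sham cartilage (horizontal, log2), 1 point per gene, for genes with a mean up to log2 8 (left) and above it (right). Blue points passed the test in OA, circles mark the 15 genes whose OA and sham changes differed, and the line marks equal change. Dim genes lie along the line, while bright genes spread mainly along the OA axis; over both panels, 1181 genes were called the same way in OA and sham.

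The test of the difference between the OA change and the sham change (the interaction) passed for 23 probe sets (0.147%), of which 11 (0.0701%) changed more positively in OA and 12 (0.0765%) more negatively. They named 15 genes, 0.164% of those tested: 6 (0.0657%) with a more positive change in OA and 9 (0.0985%) with a more negative one. No other gene named here passed this test, whatever its sham change. At an unadjusted p under 0.05, 1761 probe sets (11.2%) differed. Itga8, the alpha subunit of an integrin that binds RGD-containing matrix proteins, read 3.31, 3.35 and 3.17 at 2 weeks and 9.37, 9.05 and 7.95 at 8 weeks in OA cartilage. Its OA change was 5.51 (SE 0.29, adjusted p = 2.44e-07), against 1.07 (SE 0.29) in sham, where the arrays of 8 weeks ran from 4.30 to 4.58. Its values at 2 weeks lay below the medians of those arrays (3.71 to 3.85), near the floor of the scale, where sizes are uncertain. Itga8, and Cd68 and Foxs1 below, passed the level filter only through the OA arrays of the time at which they were high. They therefore had to differ between the times in OA, and their calls there are no independent evidence of a change. Tgfa, a ligand of the EGF receptor, read 10.73, 10.93 and 11.19 at 2 weeks and 12.21, 12.45 and 12.75 at 8 weeks in OA. In sham it read 10.82, 10.82 and 10.91 at 2 weeks and 9.43, 9.47 and 9.44 at 8 weeks. It rose by 1.52 (SE 0.15) in OA and fell by 1.40 (SE 0.15) in sham, a difference of 2.92 (adjusted p = 0.000965), and was the gene called in opposite directions. A dimmer Tgfa probe set, with a mean of 5.09, changed by 0.74 (SE 0.53) in OA and did not pass.

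Further genes rose more in OA than in sham. Fez1, an adaptor of kinesin transport, rose from 5.95 to 6.29 at 2 weeks to 8.75 to 9.19 at 8 weeks, a change of 2.85 (SE 0.15) against 0.62 in sham. Lhfpl3, a tetraspan membrane protein, rose by 2.47 (SE 0.20), against 0.26 in sham. Stard13, a lipid-transfer domain protein, rose by 1.10 (SE 0.12), against -0.02. Mmp3, the matrix metalloproteinase stromelysin 1, came into this group through sham: it ran from 14.69 to 15.20 at 8 weeks and from 14.83 to 14.95 at 2 weeks in OA, a change of 0.01, while in sham it fell by 1.37 (SE 0.14) from 14.59 to 14.91 down to 13.18 to 13.48.

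Of the genes with a more negative change in OA, Cd68, a lysosomal protein of macrophages and osteoclasts, read 9.27, 8.83 and 8.57 at 2 weeks and 2.26, 2.39 and 2.98 at 8 weeks. It fell by 6.35 (SE 0.45) in OA and differed by -0.40 in sham, where the arrays of 8 weeks read 7.86, 9.21 and 9.95. Ctsz, a lysosomal cathepsin, fell by 4.07 (SE 0.34), against -0.66 in sham. Gfap, an intermediate filament protein of glia that some chondrocytes also express, fell from 10.47, 10.01 and 10.16 to 4.52, 5.76 and 6.97, while all 6 sham arrays ran from 9.93 to 10.22. Mfap2, a microfibril protein, fell by 3.09 (SE 0.23), against -0.74 in sham. Srpx, a secreted sushi-repeat protein, fell by 1.68 (SE 0.19), against 0.14. The remaining members were Enc1, an actin-associated protein (-1.92), Ccdc88c, a Dishevelled-binding protein (-1.69), Cdca7, a Myc- and E2F-responsive gene (-1.53), and Foxs1, a forkhead factor that ended below the array medians (-1.35), whose sham changes were 0.25, 0.29, -0.19 and 0.10. In OA no array of 8 weeks overlapped the arrays of 2 weeks for any of these 9 genes. The differences for Itga8, Tgfa, Fez1, Cd68 and Enc1 passed under every alternative that tested them. All 10 others lost theirs without OA 2-week array 2 or 3, without any 1 of the sham arrays of 2 weeks, and without sham 8-week array 2 or 3. Of these 10, all but Lhfpl3 and Cdca7 also lost it without OA 2-week array 1, all but Lhfpl3 and Ccdc88c without OA 8-week array 2, Cdca7 without OA 8-week array 1, Stard13 without OA 8-week array 3, and Mmp3, Srpx, Stard13, Gfap, Mfap2 and Cdca7 with equal array medians. Under the muscle covariate 8 of the 15 differences no longer passed, those of Ccdc88c, Cdca7, Ctsz, Gfap, Mfap2, Mmp3, Srpx and Stard13. With the replicate number as a block 6 did not pass, those of Ccdc88c, Foxs1, Gfap, Mmp3, Srpx and Stard13. With no filter the 10 did not pass, and among genes with a mean above log2 8 the differences of Cdca7, Mmp3, Srpx and Stard13, 4 of the 8 tested there, did not.

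**Figure D2:**
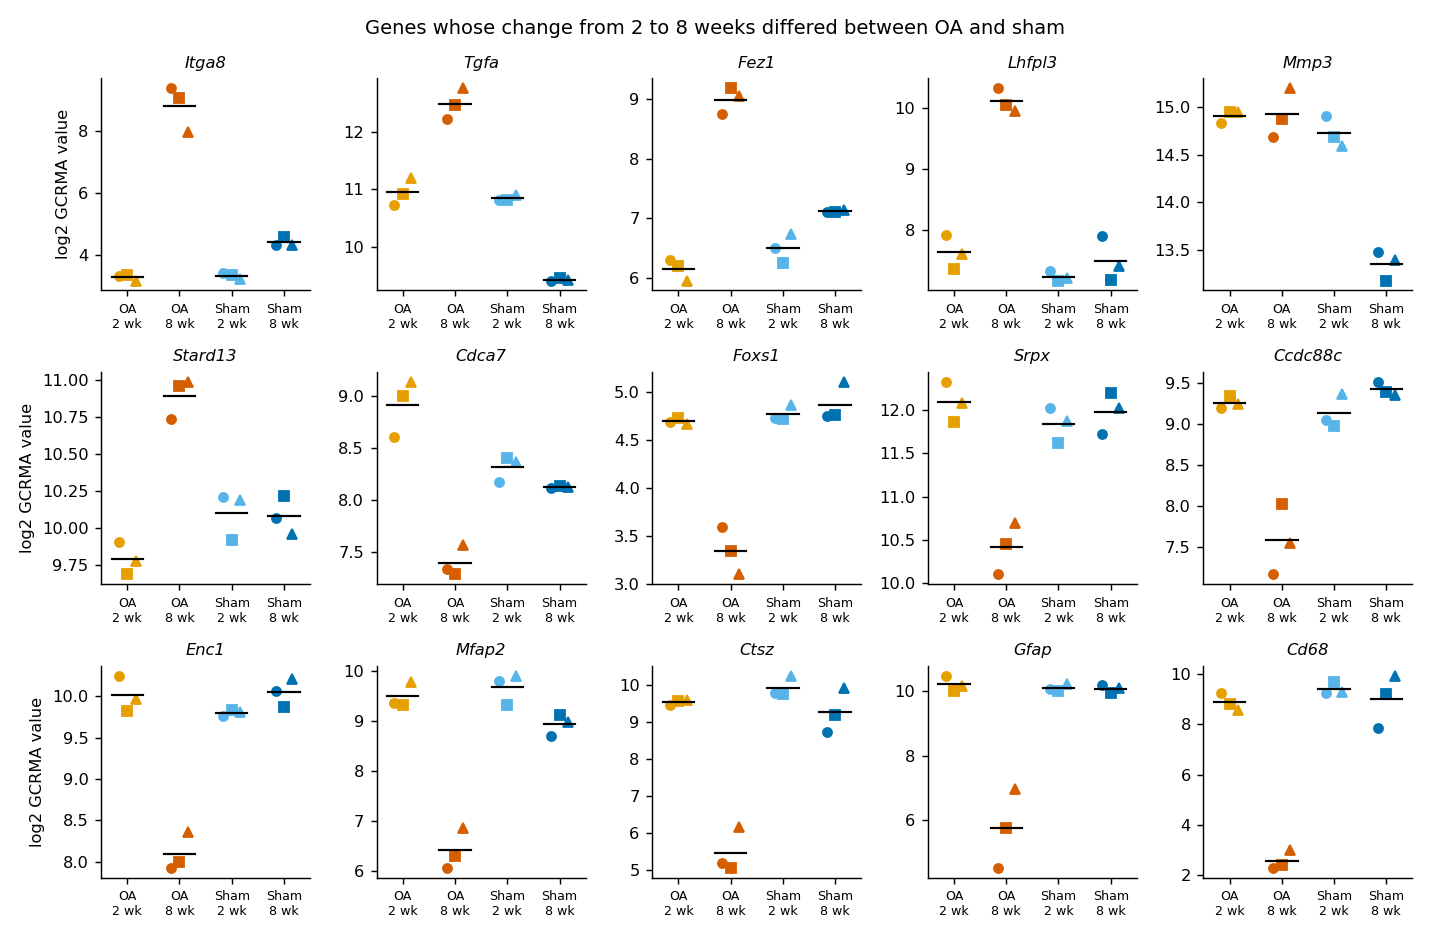
Log2 GCRMA values of the 15 genes whose change from 2 to 8 weeks differed between OA and sham, 1 point per array (shapes for array numbers 1, 2 and 3), a line at the mean of each group of 3, and an axis of its own for each gene. Tgfa rose in OA (SE 0.15 of 1.52) and fell in sham, Mmp3 stayed at 14.69 to 15.20 in OA and fell in sham, and Gfap ran from 9.93 to 10.47 in the 3 groups other than OA at 8 weeks.

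Outside muscle genes and Fez1, the largest rises named among well-detected genes were those of Serpina1, Ccl2, G0s2 and Gem. Serpina1, the elastase inhibitor alpha-1-antitrypsin, read 8.88, 6.93 and 5.71 at 2 weeks and 9.87, 12.46 and 13.28 at 8 weeks, a rise of 4.69 (SE 0.95, adjusted p = 0.00354), against 1.0 in sham. Ccl2, the chemokine that draws monocytes, read 8.39, 7.78 and 7.92 at 2 weeks and 11.98, 12.46 and 11.99 at 8 weeks, a rise of 4.11 (SE 1.31, adjusted p = 0.0338). The OA arrays of the 2 times lay far apart for Ccl2, but in sham it ranged from 4.18 to 10.51 at 8 weeks, and that spread enters the shared error: the call was lost when any 1 of the 6 OA arrays was left out. G0s2, an inhibitor of fat lipase, rose by 3.39 (SE 0.32), against 1.10 in sham. Gem, a small GTP-binding protein, rose by 3.16 (SE 0.27) from 7.30 to 7.59 up to 10.11 to 11.05, against 1.01 in sham.

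Among the largest falls of well-detected genes were those of RT1-Da, Plac8, Phex and Spc25. RT1-Da, an MHC class II chain, read 12.31, 11.31 and 11.68 at 2 weeks and 9.84, 3.87 and 7.63 at 8 weeks, a fall of 4.65 (SE 1.26), against -0.12 in sham. Plac8, a protein of myeloid and lymphoid cells, fell by 3.85 (SE 0.85). Phex, an endopeptidase of osteoblasts and osteocytes, fell by 3.68 (SE 0.38) from 10.44 to 11.43 down to 6.89 to 7.43, against -0.92 in sham. Spc25, a kinetochore protein, fell by 3.37 (SE 0.74). Among genes that ended near the floor, Ifitm1, an interferon-induced membrane protein, fell by 5.46 (SE 0.71), against -1.93 in sham, and Cpxm1, a secreted carboxypeptidase-like protein, fell by 5.43 (SE 0.65) from 6.98 to 9.11 down to 2.39 to 2.48, against -0.47. The call for RT1-Da was lost without OA 2-week array 1, with the 6 OA arrays fitted alone and under the muscle covariate, and those for Plac8 and Spc25 with the covariate.

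Most cartilage matrix genes did not pass the test. Of 30 listed matrix genes tested, 1 rose and 5 fell, against 16.5% and 12.8% of all genes, and the list's median was -0.09 in OA and 0.04 in sham. The 1 rise and 5 falls were among the 29 members with a mean above log2 8. At that level 10.2% of genes rose and 8.26% fell. With another centring the median was -0.17 (added quantile) or -0.27 (equal medians). The 3 chains of collagen IX, which decorates collagen II fibrils, fell together. Col9a1 read 15.61, 15.55 and 15.67 at 2 weeks and 14.80, 14.99 and 15.10 at 8 weeks, a fall of 0.64 (SE 0.10, adjusted p = 0.000539). Col9a3 fell by 0.79 (SE 0.10) and Col9a2 by 0.82 (SE 0.20), and neither had overlapping arrays. Col11a2, a chain of the fibril-nucleating collagen XI, fell by 0.88 (SE 0.20) from 13.50 to 14.04 down to 12.72 to 13.16.

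The sham changes of these 4 genes were -0.14, -0.22, 0.14 and -0.26 for Col9a1, Col9a3, Col9a2 and Col11a2. The differences between OA and sham had unadjusted p of 0.00447, 0.00253, 0.00677 and 0.0501, and none passed after adjustment. Ogn, a small leucine-rich proteoglycan also known as mimecan, fell by 1.16 (SE 0.32), and this call was lost without OA 2-week array 1 or 2 or without OA 8-week array 1 or 3. Dcn, the collagen-binding proteoglycan decorin, was the member that rose: it read 14.87, 14.48 and 13.98 at 2 weeks and 15.03, 15.56 and 15.50 at 8 weeks, a change of 0.92 (SE 0.23), against 0.03 in sham. Only Col9a3 among these genes kept its call under the muscle covariate. The values of Acan (0.23, SE 0.11), Comp (0.06, SE 0.09) and Col2a1 (-0.06, SE 0.08) were small against the changes of collagen IX.

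Genes of collagen processing gave a similar count. Of 23 enzymes and chaperones tested, 1 rose (4.35%) and 4 fell (17.4%). All 23 had a mean above log2 8, where 10.2% of all genes rose and 8.26% fell. Serpinh1, the collagen chaperone HSP47, fell by 0.55 (SE 0.10) from 14.08 to 14.35 down to 13.51 to 13.73. Pcolce, an enhancer of procollagen C-proteinase, fell by 0.83 (SE 0.17), and Bmp1, that proteinase itself, by 0.65 (SE 0.18). Loxl1, a lysyl oxidase-like crosslinking enzyme, fell by 1.92 (SE 0.50). Tmem38b, a potassium channel of the endoplasmic reticulum needed for collagen modification, rose by 0.74, while its other probe set, with a mean of 8.51, differed by -0.26 (SE 0.15) and did not pass. The sham changes of the 4 genes that fell lay between -0.15 and 0.08. The calls for Bmp1, Loxl1 and Tmem38b were each lost when at least 1 OA array was left out, Bmp1 without OA 2-week array 3 or OA 8-week array 1, Loxl1 without OA 8-week array 2, and Tmem38b without OA 2-week array 1 or OA 8-week array 1 or 2. All 5 calls were lost under the muscle covariate. In sulfate and glycosaminoglycan synthesis, which builds the sugar chains of aggrecan, 0 of 23 genes rose and 2 fell. Chst12 fell by 0.90, against 1.23 in sham, and B4galt7 by 0.28. B4galt7 lost its call without OA 2-week array 2 or 3, any 1 of the OA arrays of 8 weeks, or sham 2-week array 1. Both falls were lost under the muscle covariate, with which the list gave 1 rise and 0 falls.

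Of 21 genes of hypertrophy and mineralization tested, 8 (38.1%) fell and 1 (4.76%) rose, with a median of -0.18 in OA and 0.03 in sham. Mmp13, the collagenase of hypertrophic and OA chondrocytes, read 15.17, 15.00 and 14.47 at 2 weeks and 10.66, 12.56 and 12.58 at 8 weeks. It fell by 2.95 (SE 0.46, adjusted p = 0.000724), against -0.48 (SE 0.46) in sham. Panx3, a channel protein of prehypertrophic cells and osteoblasts, fell by 5.04 (SE 1.24). Smpd3, a sphingomyelinase needed for mineralization, fell by 1.46 (SE 0.23) from 11.98 to 12.50 down to 10.46 to 11.22. Pth1r, the receptor of PTH and PTHrP, fell by 0.90 (SE 0.18). Dmp1, a phosphoprotein of osteocytes and mineralizing cells, fell by 2.30 (SE 0.39), Bglap, the bone protein osteocalcin, by 2.29 (SE 0.65), and Alpl, the phosphatase that frees phosphate for mineral, by 1.27 (SE 0.30).

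Dmp1, Smpd3, Bglap and Alpl are also counted with the bone markers. Col10a1, the collagen of hypertrophic chondrocytes, did not pass (-0.27, SE 0.12, from 15.33 to 15.59 down to 15.05 to 15.24), nor did Spp1, the sialoprotein osteopontin (0.50, SE 0.35). Vegfa, the angiogenic growth factor, was the member that rose: it read 12.87, 12.81 and 12.70 at 2 weeks and 13.30, 13.58 and 13.78 at 8 weeks, a change of 0.76 (SE 0.12, adjusted p = 0.0009), against 0.05 in sham. The unadjusted p of the difference from sham was under 0.05 for 9 of the 21 genes of hypertrophy and mineralization. None of the 21 passed after adjustment. Without OA 8-week array 1 the list gave 8 falls and 1 rise. Under the muscle covariate it gave 1 of each. Only the call for Smpd3 among the falls named here, and that for Vegfa, kept direction and call in all alternatives, and the call for Bglap was also lost without OA 2-week array 2 or 3 or OA 8-week array 2.

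**Figure D3:**
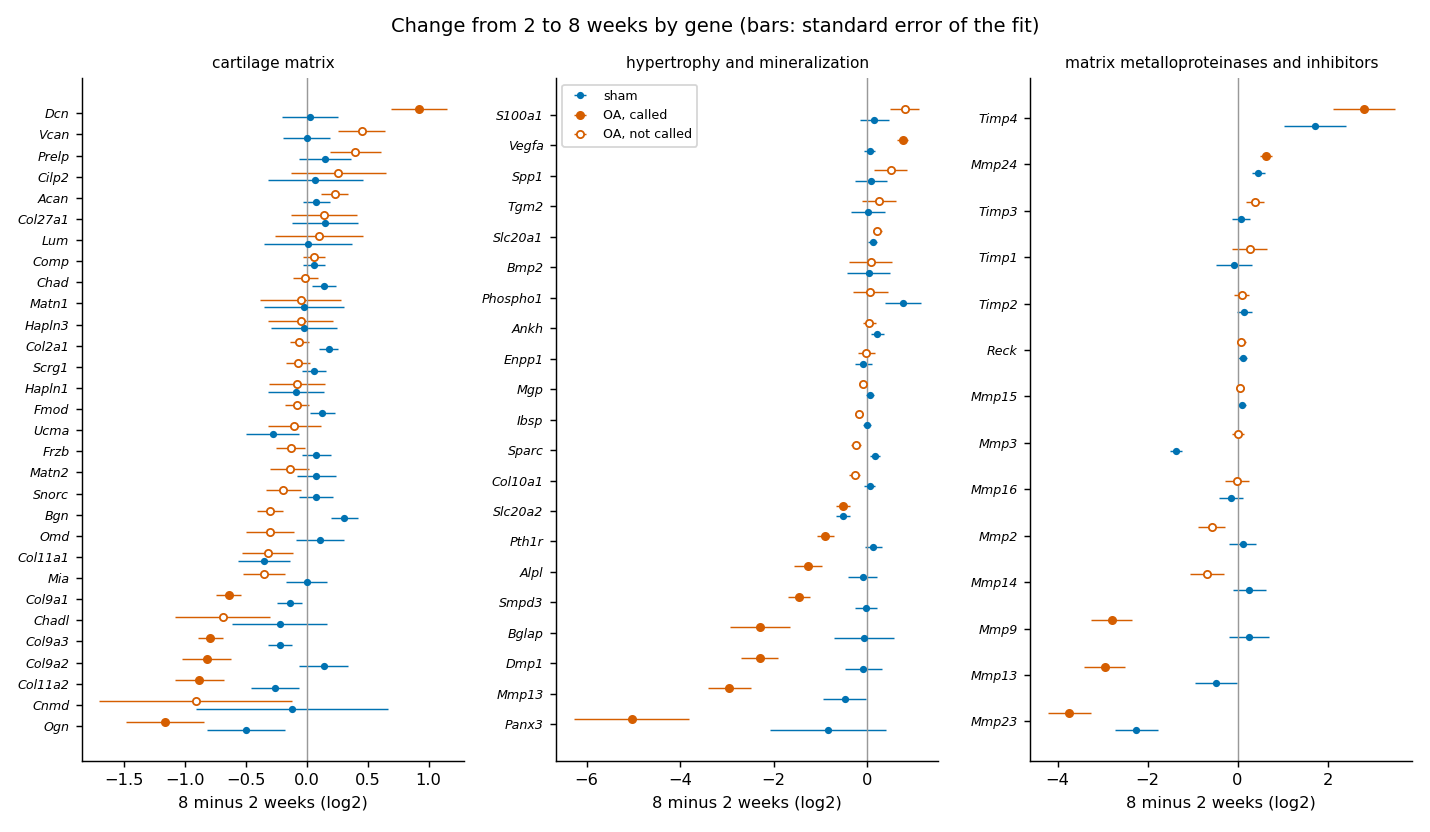
Change from 2 to 8 weeks (log2, with the standard error of the fit) for the tested genes of 3 lists, in OA (orange, filled where called) and sham (blue). In the cartilage matrix list 5 genes fell and Dcn rose, in hypertrophy and mineralization 8 fell and Vegfa rose, and in the third list Mmp3 stands at 0.01 in OA and -1.37 in sham.

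Among matrix metalloproteinases and their inhibitors, 2 of 14 genes rose and 3 fell. Mmp9, the gelatinase of osteoclasts and neutrophils, read 12.84, 12.53 and 12.56 at 2 weeks and 8.62, 10.33 and 10.59 at 8 weeks, a fall of 2.80 (SE 0.45), against 0.25 in sham. Mmp23, a membrane metalloproteinase, fell by 3.74 in OA and 2.25 in sham. Timp4, an inhibitor, rose by 2.81 from below the array medians, with 1.72 in sham, and Mmp24 by 0.63, against 0.46 in sham. Timp3, the main inhibitor of aggrecanases, read 14.90, 14.45 and 14.03 and then 14.60, 14.87 and 15.07, which did not pass (0.39, SE 0.20). The aggrecanases Adamts4 (-0.76, SE 0.54) and Adamts5 (-0.39, SE 0.50) did not pass, and their arrays overlapped. Adamts9, a secreted protease, fell by 4.41 (SE 0.43) to 2.43 to 2.55, against -1.19 in sham. A2m, the broad protease inhibitor alpha-2-macroglobulin, fell by 1.17, a call lost without OA 2-week array 1 or 2, without OA 8-week array 1 or 3, and in several other alternatives. The calls for Mmp9, Mmp13, Mmp24 and Timp4 were lost under the muscle covariate.

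Of 8 osteoclast genes tested, markers of the cells that resorb bone, 6 (75.0%) fell and 0 rose, with a median of -1.10 in OA and -0.01 in sham. The list averaged 11.46, 11.42 and 11.52 on the OA arrays of 2 weeks and 9.49, 10.22 and 10.36 on those of 8 weeks, while the 6 sham arrays ran from 11.39 to 11.95. Itgb3, the vitronectin receptor chain of osteoclasts, fell by 3.52 (SE 0.48) from 10.60 to 11.12 down to 6.04 to 8.07. Acp5, the tartrate-resistant acid phosphatase, read 14.03, 13.97 and 14.14 and then 10.83, 12.37 and 12.35, a fall of 2.20 (SE 0.36), against -0.07 in sham. Ctsk, the cathepsin that digests bone collagen, fell by 1.03 (SE 0.16), and Tcirg1, a subunit of the osteoclast proton pump, by 1.17 (SE 0.18). The sham changes of Itgb3, Ctsk and Tcirg1 were -0.49, 0.08 and -0.20. The difference from sham had an unadjusted p under 0.05 for 5 of the 8 genes, and none of the 8 passed after adjustment. Src, a kinase needed for the ruffled border of osteoclasts and expressed in many cells, had the smallest p of the list, and it fell by 1.0 in OA and by 1.07 in sham.

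Of 14 osteoblast and osteocyte genes tested 7 fell and 0 rose, with a median of -0.71 in OA and -0.05 in sham. This list shares Dmp1, Bglap, Smpd3 and Alpl with that of mineralization. Of its other falls, Phex is given above, and Dlx3, a homeobox factor, fell by 0.79, against -0.68 in sham, a call lost without OA 2-week array 2. The remaining fall was that of Mepe, a matrix phosphoglycoprotein of osteocytes, by 1.41 (SE 0.47), a call lost without OA 2-week array 2 or 3, OA 8-week array 1 or 2, sham 2-week array 1 or sham 8-week array 2. Ibsp, bone sialoprotein, did not pass (-0.18, SE 0.09). The difference from sham had an unadjusted p under 0.05 for 5 of the 14 genes, and none of the 14 passed after adjustment. Without OA 8-week array 1 the counts were 6 falls for osteoclast genes and 6 for osteoblast genes, and under the muscle covariate 2 and 2.

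Lists of blood and marrow cell markers held falls and no rises in OA cartilage. Of 21 macrophage genes tested 13 (61.9%) fell and 0 rose, with a median of -2.89 in OA and -0.25 in sham. The list averaged 9.87, 9.40 and 8.82 at 2 weeks and 6.36, 6.69 and 6.67 at 8 weeks in OA. In sham it averaged 9.97, 10.13 and 8.36 at 2 weeks and 7.37, 9.64 and 10.10 at 8 weeks, so that sham 8-week array 1 lay nearest to the OA arrays. Csf1r, the receptor that macrophages need to live, read 10.35, 10.19 and 9.80 and then 6.33, 6.85 and 6.70, a fall of 3.49 (SE 0.27), against 1.91 in sham, where it also fell. Ptprc, the pan-leukocyte antigen CD45, fell by 2.54 (SE 0.68), and Laptm5, a lysosomal protein of blood cells, by 2.21. Lyz2, the lysozyme of macrophages, did not pass (-0.68, SE 0.52). The call for Ptprc was lost without OA 2-week array 2 or OA 8-week array 1 or 3. Of the 21 genes only Cd68 passed the test of the difference from sham after adjustment.

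Of 8 genes of MHC class II presentation 6 (75.0%) fell. Cd74, the invariant chain, read 10.91, 10.14 and 10.59 and then 7.89, 5.56 and 6.86, a fall of 3.78 (SE 0.71), against -0.69 in sham. Of 8 neutrophil and marrow myeloid genes 5 (62.5%) fell, among them S100a8, a calcium-binding protein of neutrophils, at 10.87, 13.46 and 13.05 and then 11.45, 5.32 and 6.96. Its arrays overlapped, and its call was lost without OA 2-week array 1, 2 or 3, OA 8-week array 2 or 3, sham 2-week array 2 or 3, or any 1 of the sham arrays of 8 weeks. Of 7 erythroid genes 3 (42.9%) fell: Hbb, a beta globin, by 1.98 (SE 0.52) from 12.98 to 14.43 down to at most 12.67, Alas2, the first enzyme of erythroid haem synthesis, by 4.34, against -1.0 in sham, and Slc4a1, the anion exchanger of red cells, by 0.65, with 0.76 in sham. Hbb lost its call without OA 2-week array 2 or 3, and Slc4a1 without OA 2-week array 2 or OA 8-week array 1. No gene of the MHC class II, myeloid or erythroid lists passed the test of the difference from sham after adjustment.

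Of 13 endothelial genes tested 8 (61.5%) fell and 0 rose, and none of the 8 was among the 3 with a mean above log2 8. Part of this list moved alike in sham: Plvap, a protein of fenestrated vessels, fell by 3.19 in OA and 3.12 in sham, and Flt4, the lymphatic VEGF receptor, by 1.98 and 2.07. Kdr, the main VEGF receptor of vessels, read 8.77, 8.51 and 8.16 and then 7.03, 6.83 and 5.78, a fall of 1.94 (SE 0.38), against -0.91 in sham. Emcn, an endothelial sialomucin, fell by 3.55 (SE 0.73), against -1.24. Without OA 8-week array 1 the falls numbered 9 of 21 macrophage, 5 of 8 MHC class II and 9 of 13 endothelial genes. Under the muscle covariate they numbered 4, 0 and 5, and the calls for Ptprc, Cd74, S100a8, Hbb, Alas2, Slc4a1, Kdr and Emcn were lost. The part of any change in the amount of bone, marrow or vessel in the dissected tissue was not tested.

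**Figure D4:**
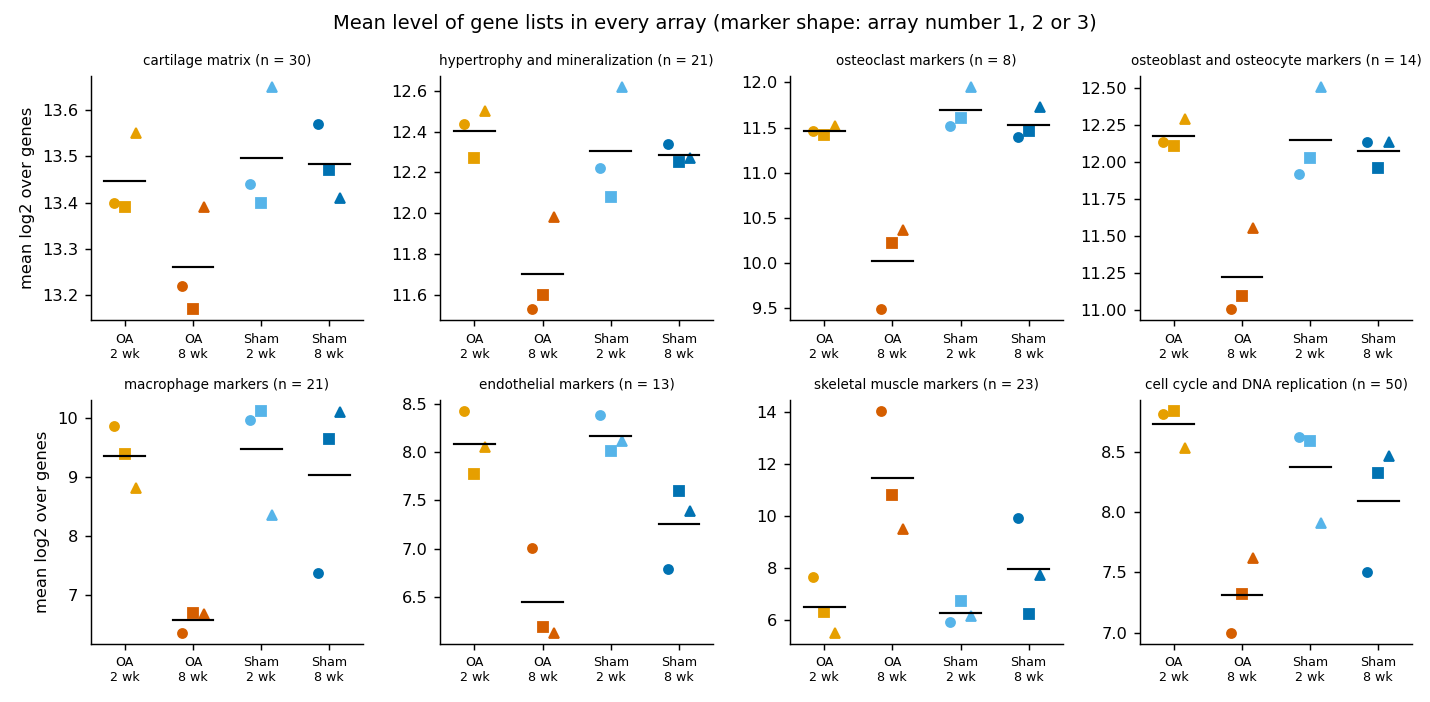
Mean log2 level of 8 gene lists on each of the 12 arrays, with array numbers 1, 2 and 3 as circle, square and triangle and a line at the mean of each group. Osteoclast, osteoblast, macrophage and cell cycle lists have their lowest group means in OA at 8 weeks, the muscle list has its highest mean there (9.49 to 14.05), and the cartilage matrix list spans only 13.17 to 13.65 over all arrays.

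Skeletal muscle genes had the largest rises. Of 23 tested 14 (60.9%) rose and 0 fell, with a median of 6.09 in OA and 1.71 in sham, and 17 had no overlap between the times, against 42.0% of all genes. Atp2a1, the calcium pump of fast muscle, read 3.15, 2.05 and 2.01 at 2 weeks and 14.80, 11.06 and 9.42 at 8 weeks, a rise of 9.36 (SE 1.47, adjusted p = 0.000739). In sham it read 2.05, 2.10 and 2.00 and then 10.64, 4.94 and 7.33, a rise of 5.59. Ckm, the muscle creatine kinase, read 6.93, 4.11 and 4.02 and then 15.96, 11.88 and 10.44. Acta1, skeletal actin, read 11.18, 7.78 and 4.21 and then 15.68, 13.49 and 12.26. In each of these genes array 1 was the highest at 8 weeks, and without it the list gave 12 rises and 1 fall, with a median of 4.88. The fall was that of Myl3, a myosin light chain of slow and cardiac muscle. Listed genes that passed the filter only through the arrays of 8 weeks had to differ, so the count describes the tested genes and not all 36 listed with a probe set. Cox6a2, the muscle form of a cytochrome oxidase subunit, read 2.05 to 2.11 at 2 weeks and 12.36, 5.23 and 4.21 at 8 weeks, and was 1 of 3 rises among 49 genes of oxidative phosphorylation. The Cox6a2 call was lost without any 1 of the 3 OA arrays of 2 weeks, and the Acta1 call (6.09, SE 2.09) without OA 2-week array 2 or 3 or any 1 of the OA arrays of 8 weeks.

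Of 50 cell cycle genes tested 31 (62.0%) fell and 0 rose, with a median of -1.10 in OA and -0.12 in sham, and 17 of the 31 falls were among the 31 genes with a mean above log2 8. The list averaged 8.81, 8.84 and 8.53 at 2 weeks and 7.0, 7.32 and 7.62 at 8 weeks in OA, and 8.62, 8.59 and 7.91 and then 7.5, 8.32 and 8.46 in sham. Mki67, the nuclear antigen of dividing cells, read 11.37, 11.74 and 10.94 and then 7.02, 8.12 and 9.30, a fall of 3.20 (SE 0.64), against -0.30 in sham. Top2a, the topoisomerase of replicating chromosomes, fell by 2.13 (SE 0.45), against 0.01 in sham. Ect2, a factor of cytokinesis, fell by 3.49 (SE 0.77) from 9.69 to 10.88 down to 6.54 to 7.52. The unadjusted p of the difference from sham was under 0.05 for 25 of the 50 genes, and none of the 50 passed after adjustment. Without OA 8-week array 1 the list gave 23 falls, and under the muscle covariate 5, when the calls for Mki67, Top2a and Ect2 were lost. Macrophage and marrow myeloid genes, which also fell, had medians of -2.89 and -3.48 on those arrays, and their part in this fall was not tested.

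Promoters were read for lists set by pathway, which were chosen with earlier results of these data known. Genes listed for a pathway often hold its own element, so the shares of the lists do not bear on the change with time. The reference for every motif was all 27457 genes with a RefSeq promoter, and not the genes tested on the arrays. Promoters of cell cycle genes are known for the CHR element TTTGAA and the CCAAT box. In RefSeq promoters, from 250 bases before to 50 after the start, TTTGAA on either strand occurred in 17 of 42 listed genes (40.5%), against 19.4% of 27457 genes, and CCAAT in 31 of 42 (73.8%), against 39.6%. Of the 27 called genes with a promoter 14 held TTTGAA and 20 held CCAAT. The promoter of Birc5 is the one of the called genes with the smallest p that holds both. As given above, Birc5 changed as much in sham. It lies at chr10:103571896-103572195 of GRCr8 on the plus strand, with both elements in capitals:
Birc5 promoter: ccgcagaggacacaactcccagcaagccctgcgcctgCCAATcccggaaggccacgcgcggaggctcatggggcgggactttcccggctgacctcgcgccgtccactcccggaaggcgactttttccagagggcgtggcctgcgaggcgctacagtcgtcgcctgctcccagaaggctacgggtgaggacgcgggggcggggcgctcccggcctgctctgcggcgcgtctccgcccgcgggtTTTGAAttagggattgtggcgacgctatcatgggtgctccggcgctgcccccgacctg

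Of 41 genes of hypoxia and glycolysis tested 16 (39.0%) rose, 2 fell and 23 did not pass, against 16.5% and 12.8% of all genes, with a median of 0.23 in OA and 0.07 in sham. Egln3, the oxygen-sensing prolyl hydroxylase PHD3 and a target of HIF, read 10.87, 10.64 and 10.59 at 2 weeks and 12.32, 12.53 and 12.76 at 8 weeks, a rise of 1.84 (SE 0.26, adjusted p = 0.000309), against 0.12 in sham. Ndrg1, a stress-responsive cytoplasmic protein, rose by 1.13 (SE 0.20), against 0.16. Ero1a, the oxidase that drives disulfide formation, rose by 0.85 (SE 0.15), against 0.10. Stc2, a secreted glycoprotein, rose by 1.64 in OA and 0.91 in sham. Vegfa is given above. Pfkl, a phosphofructokinase, fell by 0.87 in OA and 0.90 in sham. Pgk1 (0.03, SE 0.10) and Ldha (0.05, SE 0.09), glycolytic enzymes at high level, did not pass, although a dim probe set of Pgk1, with a mean of 4.63, fell by 0.64 (SE 0.18). The unadjusted p of the difference from sham was under 0.05 for 12 of the 41 genes, and none of the 41 passed after adjustment. Without OA 8-week array 1 the list gave 10 rises and 2 falls, and with equal array medians its median was 0.05. The muscle covariate left 7 rises and 1 fall.

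The core of the hypoxia response element, ACGTG, occurred on either strand in 24 of 36 promoters of these genes (66.7%), against 20.9% of all genes with a RefSeq promoter. It occurred in 8 of the 15 called genes with a promoter. Eno2, the neuronal enolase, is the called gene with the smallest p that holds it. It read 12.49, 12.57 and 12.57 at 2 weeks and 13.15, 13.40 and 13.35 at 8 weeks, a rise of 0.76 (SE 0.11, adjusted p = 0.000424), against 0.05 in sham, and kept its call in every alternative. Its promoter lies at chr4:159267171-159267470 of GRCr8 on the minus strand, with the core in capitals:
Eno2 promoter: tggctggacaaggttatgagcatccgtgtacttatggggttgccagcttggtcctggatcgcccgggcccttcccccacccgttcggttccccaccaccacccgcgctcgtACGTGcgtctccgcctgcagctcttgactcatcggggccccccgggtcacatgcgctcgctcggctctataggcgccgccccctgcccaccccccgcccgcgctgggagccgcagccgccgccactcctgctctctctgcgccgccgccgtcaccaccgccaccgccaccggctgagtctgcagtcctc

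Immediate early genes are those that cells switch on within minutes of a stimulus. Of 20 tested 9 (45.0%) rose, 1 fell and 10 did not pass, with a median of 0.53 in OA and -0.07 in sham. Nr4a2, an orphan nuclear receptor, read 4.37, 5.0 and 4.93 and then 8.79, 9.56 and 8.07, a rise of 4.04 (SE 0.36), against 1.33 in sham. Nr4a1, its relative, rose by 3.97 (SE 0.67), against 1.48. Atf3, a stress-induced repressor, rose by 3.34 (SE 0.56), against 2.01 in sham. Dusp1, a phosphatase that switches off MAP kinases, read 12.72, 12.45 and 13.04 and then 14.51, 14.48 and 14.48, a rise of 1.76 (SE 0.35), against 0.24. Klf4, a zinc finger factor, rose by 0.71 (SE 0.14), against 0.03. Jun, a subunit of AP-1, rose by 1.56 (SE 0.46), a call lost without OA 2-week array 1 or 2 or OA 8-week array 1 or 2. Egr1 did not pass (0.18, SE 0.29). Without OA 8-week array 1 the list gave 7 rises and 0 falls. Under the muscle covariate it gave 3 and 0. Nr4a1 and Dusp1 were among the genes that lost their calls, and not all other rises named here kept theirs.

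Of 22 heat shock genes 4 rose and 1 fell, and under the muscle covariate 1 rose and 0 fell. Hspb1, the small heat shock protein HSP27, read 9.50, 9.19 and 9.88 and then 11.95, 10.41 and 11.20, a rise of 1.66 (SE 0.39), against 0.35 in sham. Hspb8, its partner, rose by 1.04 (SE 0.21), against 0.12. Both calls were lost under the muscle covariate. The heat shock element GAANNTTC occurred in 12 of 19 promoters of the list (63.2%), against 9.09% of all genes.

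Of 18 clock genes tested 7 (38.9%) rose, 1 fell and 10 did not pass in OA, while 5 rose and 0 fell in sham. Of the 12 with a mean above log2 8, 1 rose and 1 fell in OA. Per1, a repressor of the clock, read 4.06, 3.62 and 3.47 at 2 weeks and 7.10, 7.85 and 7.74 at 8 weeks, a rise of 3.85 (SE 0.20), and rose by 3.31 in sham. Per3 rose by 2.24 in OA and 1.41 in sham, and Hlf, a clock output factor, by 2.42 and 2.01. Csnk1e, the kinase that marks PER proteins, read 5.80 to 5.83 and then 6.76 to 6.80, a rise of 0.96, with 0.91 in sham. The difference between OA and sham had an unadjusted p under 0.05 for 2 of the 18 genes, Per3 among them, and none passed after adjustment. The hour of tissue collection is not given in the sources used here, so hour, weeks after surgery and array processing cannot be told apart for these genes.

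The E-box CACGTG bound by the clock activators occurred in 4 of 15 promoters of the list (26.7%), against 7.08% of all genes, and in 2 of the 7 called genes with a promoter. Nr1d1, the nuclear receptor REV-ERB alpha, is the called gene with the smallest p that holds it. It read 4.71, 4.75 and 4.72 and then 6.49, 6.49 and 6.84, a rise of 1.88 (SE 0.29), and rose by 1.65 in sham. The promoter with the match is at chr10:84229405-84229704 of GRCr8 on the minus strand, 1 of 2 promoters of the gene, with the E-box in capitals:
Nr1d1 promoter: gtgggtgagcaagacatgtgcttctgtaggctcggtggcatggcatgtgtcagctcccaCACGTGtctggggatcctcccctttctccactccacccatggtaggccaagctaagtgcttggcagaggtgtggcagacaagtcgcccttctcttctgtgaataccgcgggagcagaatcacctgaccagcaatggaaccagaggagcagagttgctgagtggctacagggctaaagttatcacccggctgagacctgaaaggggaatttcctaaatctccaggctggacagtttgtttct

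Targets of the glucocorticoid receptor and of FOXO factors rose in 9 of 20 cases (45.0%) and fell in 1, with a median of 0.43 in OA and 0.22 in sham. Nr3c2, the mineralocorticoid receptor, read 3.26, 3.69 and 4.24 and then 7.78, 6.79 and 6.64, a rise of 3.34 (SE 0.36), against 1.09 in sham. Fkbp5, a chaperone induced by glucocorticoids, rose by 1.59 (SE 0.32), against 0.74. Klf9, a zinc finger factor, rose by 0.90 (SE 0.23), against 0.31, and Sgk1, a kinase, by 0.75 (SE 0.17), against 0.24. G0s2, Dusp1 and Per1, which also belong to this list, are given above. The difference from sham had an unadjusted p under 0.05 for 3 of the 20, and none of the 20 passed after adjustment. Under the muscle covariate the list gave 3 rises and 0 falls, and Fkbp5, Klf9 and Sgk1 lost their calls.

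Of 20 inflammatory NF-kB targets and cytokines 4 (20.0%) rose and 0 fell, against 16.5% and 12.8% of all genes. Nfkbiz, a nuclear NF-kB cofactor, read 11.65, 10.75 and 10.59 and then 12.16, 13.14 and 12.58, a rise of 1.63 (SE 0.29, adjusted p = 0.00162), against 0.13 in sham. Tnfaip3, the NF-kB inhibitor A20, rose by 0.57 (SE 0.15), against -0.04. Birc3, an inhibitor of apoptosis, rose by 0.90 in OA and 0.78 in sham. Ptgs2, the inducible cyclooxygenase, did not pass (0.48, SE 0.30). These 3 rises lost their calls under the muscle covariate, and Tnfaip3 also with equal array medians. Of 11 chemokine genes 4 (36.4%) rose and 2 (18.2%) fell. Cxcr4, the receptor of Cxcl12, read 10.19, 10.47 and 9.98 and then 7.67, 7.40 and 6.50, a fall of 3.03 (SE 0.47), against -0.22 in sham. Ackr3, the other receptor of Cxcl12, rose by 0.53 (SE 0.16), a call lost with equal array medians and without OA 2-week array 1 or 2 or OA 8-week array 2 or 3. Ccl7, a monocyte chemokine, rose by 0.98 (SE 0.26), a call lost without OA 2-week array 3 or OA 8-week array 1 and under the muscle covariate. Under that covariate the chemokine list gave 1 rise and 2 falls.

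Interferon response genes fell in 10 of 26 cases (38.5%) and rose in 4, with medians of -0.23 in OA and -0.18 in sham. Of the 9 with a mean above log2 8, 1 rose and 0 fell, and under the muscle covariate 1 of the 26 rose and 5 fell. Rsad2, the antiviral enzyme viperin, read 8.67, 11.14 and 10.98 and then 5.47, 4.96 and 5.12, a fall of 5.08 (SE 0.62), against 2.02 in sham, where it also fell. Mx2, an antiviral GTPase, fell by 1.74 in OA and 1.94 in sham, and Oasl by 1.31 and 1.44. Ifi35 rose by 1.44 and 1.32. Sites for interferon-regulated factors, searched as GAAA, any 2 bases and GAAA, occurred in 13 of 21 promoters of the list (61.9%), against 4.12% of all genes, and in 7 of the 11 called genes with a promoter. Psmb10, a subunit of the immunoproteasome, is the called gene with the smallest p that holds the site. It read 7.38, 7.05 and 7.14 and then 6.06, 5.99 and 5.51, a fall of 1.33 (SE 0.15), and fell by 0.97 in sham. Its promoter lies at chr19:50743243-50743542 of GRCr8 on the minus strand, with 2 matches in capitals:
Psmb10 promoter: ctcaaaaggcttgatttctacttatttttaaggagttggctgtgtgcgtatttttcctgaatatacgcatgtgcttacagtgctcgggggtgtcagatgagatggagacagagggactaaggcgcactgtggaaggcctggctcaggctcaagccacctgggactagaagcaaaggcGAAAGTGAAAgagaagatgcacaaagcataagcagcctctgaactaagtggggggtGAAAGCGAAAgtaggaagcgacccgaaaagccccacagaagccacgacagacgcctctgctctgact

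Of 12 complement genes 4 fell and 1 rose. Cfd, the protease factor D, read 6.72, 6.75 and 6.73 at 2 weeks and 1.78, 1.77 and 1.73 at 8 weeks, a fall of 4.97 (SE 0.55), against -0.98 in sham, where it ran from 5.29 to 7.55 at 8 weeks. C3, the central component, fell by 3.48 (SE 0.63), against -1.98. The chains C1qa and C1qb of C1q, which macrophages make, fell by 3.10 (SE 1.06) and 2.89, against 0.14 and -1.77 in sham, and both calls were lost without OA 2-week array 1 or 2 or without any 1 of the OA arrays of 8 weeks, and that of C1qb also without OA 2-week array 3. Clu, the chaperone clusterin, rose by 0.51 (SE 0.15) from 14.64 to 15.21 up to 15.34 to 15.46. This call was lost with equal array medians and without OA 2-week array 2 or 3 or OA 8-week array 1 or 2. The muscle covariate left 0 rises and 2 falls in the complement list, so the call for Clu was lost there too.

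Growth factor pathways showed scattered members. Of 36 TGF-beta and BMP genes 2 (5.56%) rose and 6 (16.7%) fell, against 16.5% and 12.8% of all genes. Inhba, the activin A subunit, read 13.16, 13.18 and 13.43 and then 14.07, 14.36 and 14.84, a rise of 1.16 (SE 0.20, adjusted p = 0.00116), against -0.06 in sham, and kept its call in every alternative. Id1, a BMP target that blocks differentiation factors, fell by 0.86 (SE 0.22), against -0.02. Chrdl1, a BMP antagonist, rose by 1.94 in OA and 1.45 in sham, and Smad6, an inhibitory SMAD, fell by 0.85 and 0.78. Of 20 WNT genes 2 rose and 4 fell. Ccn4, the secreted WNT target WISP1, read 9.94, 10.11 and 10.81 and then 8.78, 8.91 and 9.07, a fall of 1.36 (SE 0.22), against -0.08. Fzd1, a WNT receptor, rose by 1.65 in OA and 1.61 in sham. Dkk3, a secreted Dickkopf protein of superficial cartilage, rose by 1.13 (SE 0.31), a call lost without OA 2-week array 1 or 2. Id1, Smad6, Ccn4 and Dkk3 lost their calls under the muscle covariate.

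Of 17 FGF and ERK feedback genes 1 rose and 2 fell. Spry2, a feedback inhibitor of receptor kinases, read 7.84, 8.00 and 7.83 and then 8.95, 9.47 and 9.18, a rise of 1.31 (SE 0.23), against 0.31 in sham. Of 8 EGF receptor genes and ligands 2 rose and 1 fell. Beside Tgfa, Errfi1, an inhibitor of the EGF receptor, rose by 0.55 (SE 0.16), a call lost with equal array medians and without OA 2-week array 2 or 3 or OA 8-week array 2 or 3. Hbegf, another ligand, fell by 1.04 (SE 0.31), a call lost without OA 2-week array 1 or 3 or OA 8-week array 1 or 3. Egfr itself did not pass (-0.08, SE 0.46). Of the Notch and hedgehog genes, Hey1, a Notch target repressor, read 8.32, 8.28 and 9.21 and then 6.26, 6.27 and 5.61, a fall of 2.55 (SE 0.39), against -0.06 in sham. Hey2, its relative, rose by 1.34 (SE 0.36), a call lost without OA 2-week array 3 or OA 8-week array 2. Errfi1, Hbegf and Hey2 lost their calls under the muscle covariate.

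Growth-associated imprinted genes, which limit or drive fetal and postnatal growth and fade with age in many tissues, fell in 6 of 12 cases and rose in 2, with a median of -0.36 in OA and 0.03 in sham. Igf2, the fetal insulin-like growth factor, read 10.56, 10.75 and 12.24 and then 8.27, 7.45 and 8.83, a fall of 3.00 (SE 0.57), against -0.14 in sham. H19, the noncoding RNA beside it, read 14.24, 14.31 and 14.45 and then 13.71, 12.84 and 13.01, a fall of 1.15 (SE 0.19), against 0.17. Cdkn1c, the cell cycle inhibitor p57, read 14.32, 14.39 and 14.27 and then 12.69, 13.35 and 12.86, a fall of 1.36 (SE 0.18, adjusted p = 0.00021), against 0.04. Ndn, the growth suppressor necdin, fell by 0.90 (SE 0.19), against 0.11. The unadjusted p of the difference from sham was under 0.05 for 7 of the 12 genes, and none of the 12 passed after adjustment. Cdkn1c and H19 kept their calls in every alternative, and Igf2 and Ndn lost theirs under the muscle covariate, when the list gave 2 falls and 0 rises.

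In the IGF and growth hormone axis, which shares Igf2 and H19, 5 of 17 genes (29.4%) fell and 2 (11.8%) rose. Over all genes 12.8% fell and 16.5% rose. Igfbp5, a binding protein stored in matrix, fell by 0.87 (SE 0.18) from 11.93 to 12.32 down to 10.99 to 11.66, against -0.05 in sham. Igf1 did not pass (-1.51, SE 0.95), and its arrays overlapped. Irs1, an adaptor of the insulin and IGF receptors, rose by 1.01 in OA and 0.98 in sham, and lost its call under the muscle covariate.

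Of 52 genes of fibrous and repair matrix 8 (15.4%) rose and 7 (13.5%) fell, near the background. Cthrc1, a secreted protein of repair tissue, read 13.08, 12.94 and 12.28 and then 8.06, 10.40 and 11.01, a fall of 2.95 (SE 0.77), against -0.53 in sham. Thbs2, a matricellular thrombospondin, read 11.80, 11.67 and 12.19 and then 13.47, 12.87 and 13.14, a rise of 1.27 (SE 0.26), against 0.29. Both calls were lost under the muscle covariate. Col1a1, the collagen of bone and fibrous tissue, did not pass (-0.62, SE 0.44), with array 1 at 12.41 and the other arrays of 8 weeks at 14.40 and 14.28. Its other probe set, with a mean of 10.84, fell by 1.40 (SE 0.34, adjusted p = 0.0104 by limma). Fn1, fibronectin, did not pass either (-0.03, SE 0.10). Among 19 integrin and adhesion genes, 3 rose and 3 fell: beside Itga8 and Itgb3, Itga5, the fibronectin receptor chain, rose by 1.46 in OA and 1.11 in sham, Cd47, the thrombospondin receptor, rose by 0.68, against 0.09 in sham, and Cdh2, N-cadherin, fell by 4.36, against -1.74 in sham. A further Cd47 probe set, with a mean of 10.35, differed by -0.12 (SE 0.14) and did not pass.

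Of 52 secretory pathway genes, with those of the unfolded protein response, 9 (17.3%) fell and 2 (3.85%) rose, with a median of -0.14 in OA and 0.07 in sham. Of the 50 with a mean above log2 8, 8 fell and 1 rose. At that level 8.26% of all genes fell and 10.2% rose. Sec13, a coat protein of vesicles leaving the endoplasmic reticulum, read 13.43, 13.24 and 13.34 and then 12.62, 12.82 and 12.78, a fall of 0.60 (SE 0.09, adjusted p = 0.000566), against 0.11 in sham. Manf, a secreted stress protein of that compartment, fell by 0.43 (SE 0.09), and Kdelr2, which returns proteins to it, by 0.58 (SE 0.14). These 3 calls were lost under the muscle covariate, with which the list gave no call. The 2 rises were stress-induced genes: Trib3, a pseudokinase, by 0.82, with 0.59 in sham, and Ddit3, the factor CHOP, by 0.58, a call lost with equal array medians and without OA 2-week array 1, 2 or 3 or OA 8-week array 1 or 3. The stress element made of CCAAT, 9 further bases and CCACG occurred in 7 of 44 genes of the list (15.9%), against 0.0765% of all genes, and in 0 of the 9 called genes with a promoter.

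Of 40 cytosolic ribosomal protein genes 1 fell and 0 rose, of 30 proteasome genes 1 rose and 1 fell, and of 38 splicing factor genes 3 rose and 2 fell. The medians of several lists were too near 0 to carry a direction. That of oxidative phosphorylation was 0.12 as deposited and -0.06 with equal array medians, that of heat shock genes 0.15 and -0.03, that of splicing factors 0.08 and -0.10, and that of metalloproteinases and inhibitors 0.04 and -0.14. Of 30 antioxidant genes 5 rose and 4 fell. Gpx7, a peroxidase of the endoplasmic reticulum, read 12.23, 11.90 and 12.27 and then 11.23, 11.21 and 11.42, a fall of 0.85 (SE 0.12), against -0.02 in sham, a call lost with that covariate. Gstm1, a glutathione transferase, rose by 1.34 in OA and 1.25 in sham.

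**Figure D5:**
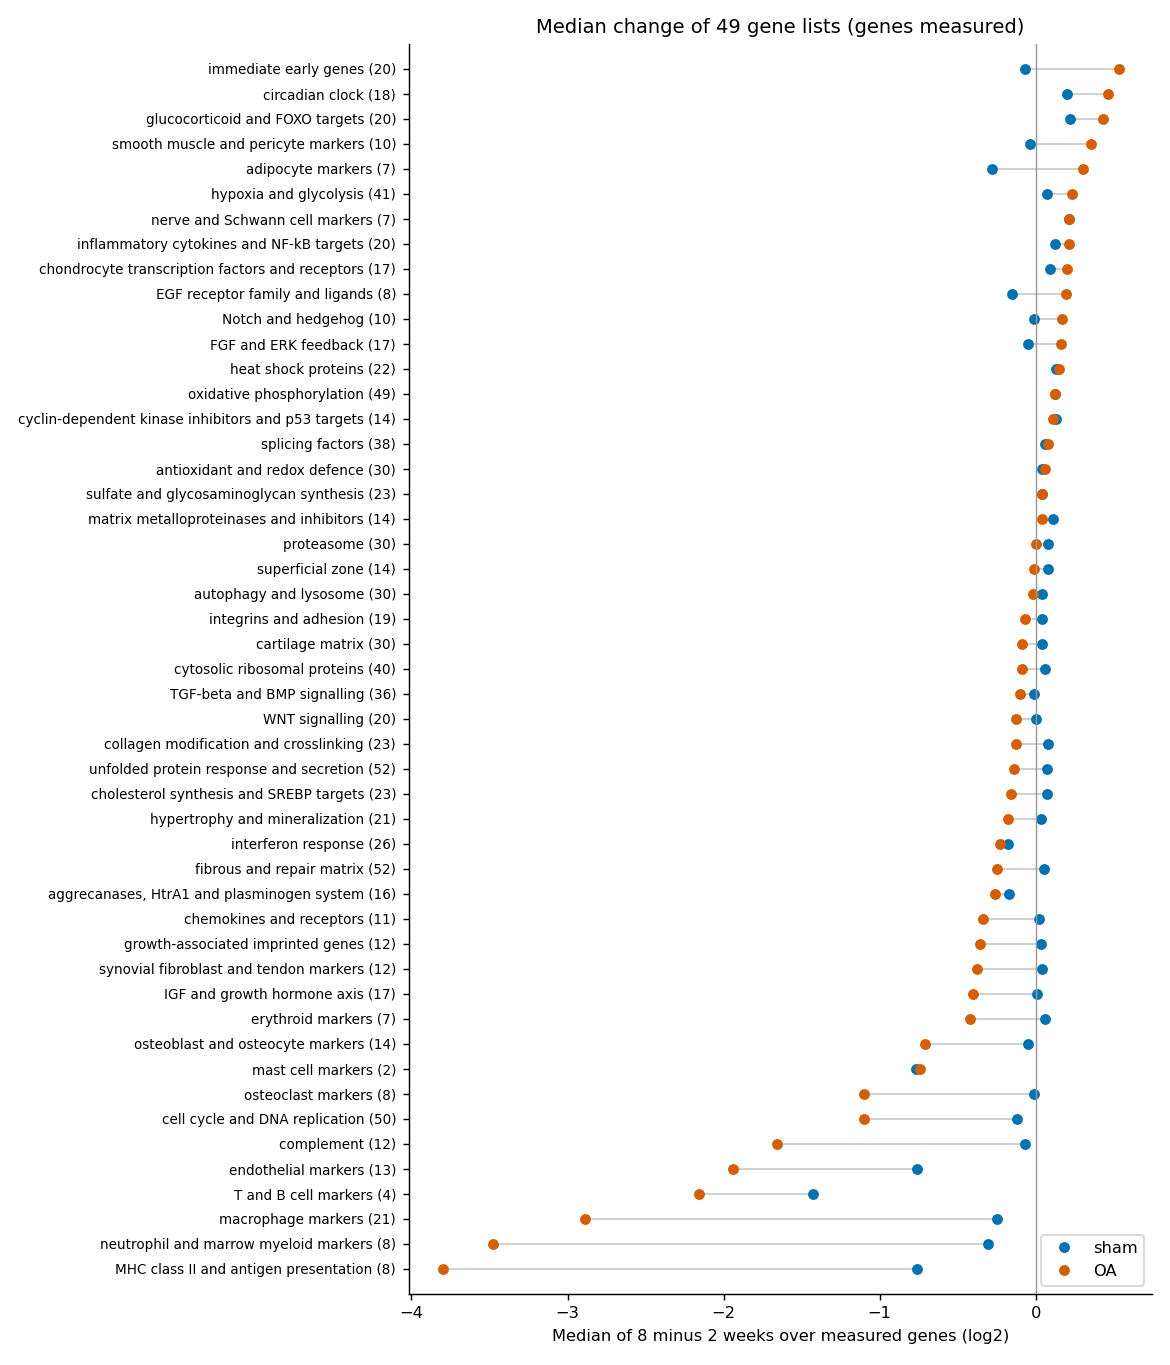
Median change from 2 to 8 weeks (log2) over the tested genes of each list, in OA (orange) and sham (blue), with the number of tested genes in brackets; the skeletal muscle list (median 6.09) is off the scale and left out. Immediate early genes (0.53) have the highest OA median, MHC class II (-3.80), neutrophil (-3.48) and macrophage (-2.89) lists the lowest, and the sham medians of these 3 lie nearer 0.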

How the data were processed

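RNA of 12 samples of rat knee cartilage was hybridized to Affymetrix arrays, 1 sample per array and 3 arrays for each of OA and sham at 2 and 8 weeks. The authors deposited log2 values computed with GCRMA, per the submitters' processing notes, which correct background by probe sequence and normalize between arrays, so that dim values gather near a floor. No further normalization was added.

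The 57 control probe sets were dropped, and 15690 probe sets above log2 4 in at least 3 of the 6 OA arrays were kept. limma 3.58.1 in R 4.3.3 fitted the 4 group means on all 12 arrays, which share 1 estimate of spread (8 residual degrees of freedom). The contrasts were 8 minus 2 weeks in OA, the same in sham, and their difference, with Benjamini-Hochberg adjustment over all kept probe sets. The fit was tested on simulated data with independent noise and no shared shift between the times, a simpler setting than these data. A gene was represented by its probe set with the highest mean in OA among probe sets with exactly 1 symbol in the platform annotation. Of the 31099 probe sets 20832 had 1 symbol, 436 several and 9831 none, and those without exactly 1 are not named. Summaries and figures used Python 3.11.15 with pandas 2.3.3, numpy 2.4.6 and matplotlib 3.10.9. Promoters are those of RefSeq on GRCr8, matched by symbol. Motifs were searched on both strands, and a gene counts where any of its promoters holds the motif.

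The comparison and the gene lists were chosen with earlier results of these data known. Genes were named by rule: the 10 largest called rises and falls without overlap between the times, the 8 largest with a lower group mean above log2 6, the 8 largest called differences from sham in each direction, for each list described, 2 to 5 genes of smallest p plus any that moved against the others, and a set of 15 cartilage genes. Of that set, Sox9 and Prg4 are not analysed here. Acp5, Mki67, Top2a, Ogn, Thbs2, Cthrc1, Ndrg1, Jun, Klf4, Ddit3, Ero1a, Ptprc, Cdca7, Bglap, Col1a1, Egfr, Egr1, Fkbp5, Fn1, Ibsp, Klf9, Ldha, Lyz2, Panx3, Pgk1, Ptgs2, Sgk1, Spp1, Mepe and Myl3 were named after their values were seen. Alternatives changed the filter, the normalization, the weights, the variance model, the arrays fitted, the replicate number as a block, the size required and the muscle level as a covariate.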

Additional observations from a re-analysis of the deposited data

Results flagged for a closer look

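The change from 2 to 8 weeks differed between OA and sham cartilage, by limma's test of the difference with adjusted p under 0.05, for 15 genes. On the log2 scale the OA change minus the sham change was 4.44 (SE 0.41) for Itga8, 2.92 (SE 0.21) for Tgfa, 2.23 for Fez1, 2.21 for Lhfpl3, 1.39 for Mmp3 and 1.12 for Stard13. It was -5.94 for Cd68, -4.43 for Gfap, -3.42 for Ctsz, -2.35 for Mfap2, -2.17 for Enc1, -1.97 for Ccdc88c, -1.82 for Srpx, -1.45 for Foxs1 and -1.33 for Cdca7. Tgfa moved in opposite directions in OA and sham, and for Mmp3 the difference came from the fall in sham. Cd68 and Ctsz, lysosomal genes of macrophages and osteoclasts, fell on the same arrays on which the macrophage list was lowest (6.36 to 6.69), and the part of the number of such cells was not tested. Cd68 is a member of that list, so its fall is part of the list's own level.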

How the results depend on the processing

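The OA counts of 3416 rises and 1932 falls moved by more than 1.5 times, or changed their split, under these settings. Equal array medians gave 2206 rises, the muscle level as a covariate 1492 rises and 726 falls, no filter 5776 and 3685, and a required size of at least 1 gave 1536 and 913. The filter at log2 6 gave 1248 falls. A mean above log2 8, chosen after seeing the data, gave 997 and 577. Leaving out 1 array gave 2650 to 3486 rises and 1530 to 1999 falls. In sham, the filter at log2 6 gave 981 rises and 444 falls, no filter 3998 and 2940, a size of at least 1 gave 991 and 460, and a mean above log2 8 gave 56 and 37.

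The difference between OA and sham moved most. Against 11 probe sets more positive and 12 more negative in OA, added quantile normalization gave 17 and 23, array weights 56 and 76, equal array medians 7 and 7, no filter 4 and 4, a mean above log2 8 gave 2 and 2, and the muscle covariate 5 more negative. Leaving out both 8-week arrays numbered 1, chosen after seeing the data, gave 60 and 73. Leaving out 1 array gave 3 to 30 more positive and 4 to 53 more negative. The higher counts came without OA 8-week array 1 (30 and 22), without sham 8-week array 1 (28 and 53) and, for more negative, without OA 8-week array 3 (30). Without OA 2-week array 2 or 3, any 1 of the sham arrays of 2 weeks, or sham 8-week array 2 or 3, there were 3 to 4 more positive and 4 to 5 more negative. More negative probe sets numbered 6 without OA 2-week array 1 and 7 without OA 8-week array 2.

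Whether the replicate numbers pair samples was looked at only between the OA arrays of 2 and 8 weeks. Deviations of same-numbered arrays from their group means correlated at 0.0339, 0.241 and 0.0515. Arrays 1 and 2 of 2 weeks correlated best with the same number of 8 weeks, and array 3 with array 1 (0.127). A pairing of OA with sham arrays of the same time was not tested. With the replicate number as a block the counts were 3760 rises and 2057 falls, and of the 15 genes whose OA and sham changes differed 9 passed and 6 did not. Of 234 named genes called in OA, 93 kept direction and call under every alternative that tested them. With the muscle covariate 97 kept theirs, 131 lost the call and 6 changed sign: Acta1 (-1.30), Tnnc2 (-0.94), Myl11 (-0.38), Ckm (-0.04), Cox6a2 (-0.00) and Dusp7 (0.03). The covariate is built from muscle genes and is itself higher at 8 weeks, so it shares its variation with time. Signals near the floor of the scale limit the sizes of dim genes.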
